A study of Mus musculus with 9 samples.

Results

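Gene expression in the nasal mucosa of allergen-sensitised mice was compared between 4 weeks and 2 h after the last allergen challenge. The 2 groups compared hold 6 of the 9 arrays of the series, chosen by their titles. All annotated probe sets were described by the function of their genes. The 3 OVA arrays came from BALB/c mice, an inbred strain much used for allergic airway models, that were sensitised to and challenged with ovalbumin (OVA, an egg white protein) as the allergen, and were taken 2 h after the last challenge. The 3 arrays called 4-week here came from mice of the same strain with the same OVA treatment, taken 4 weeks after the last challenge. The third group of 3 arrays, the control, received saline for sensitisation and for challenge, and its values are given as background. All 9 arrays entered the fit behind the p-values, so the spread of the control arrays is part of each. Every sample is labelled male and 6 to 8 weeks old, and all mice were kept free of specific pathogens. The sources used here give neither dose, route nor adjuvant. The comparison asks which transcripts stood at another level after an allergen-free period than shortly after a challenge.

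The nasal mucosa of the mouse holds an olfactory epithelium of sensory neurons and supporting sustentacular cells, a respiratory epithelium of ciliated, secretory and basal cells, and glands beneath both. In sensitised animals an inhaled allergen crosslinks IgE on mast cells, and released mediators and cytokines then switch on NF-kappaB, a transcription factor of early inflammation, and STAT3, which transmits the signals of IL-6 and oncostatin M. Both factors induce their own inhibitors, so the transcripts of these inhibitors are widely read as markers of recent signalling. Type 2 cytokines, above all IL-4 and IL-13, act more slowly on epithelium and macrophages.

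Values of a group are given in the order of its replicates. Array medians of the 6 arrays lay between 6.38 and 6.45 on the log2 scale. Across probe sets, arrays of a group correlated at r = 0.986 to 0.992, and OVA with 4-week arrays at 0.978 to 0.988. Whether the arrays of a group represent separate animals is not stated in the labels, so the p-values measure the spread between samples that may be technical replicates. Each group had 3 arrays, and this number limits the precision of every value. The control arrays carried a female pattern of sex-linked transcripts although they are labelled male (Xist 10.62, 10.70 and 11.11). Both groups compared here carried the male pattern (Xist between 4.22 and 4.42), but values set beside the control arrays differ in this respect too. Age at collection, time of day and handling cannot be told apart from the allergen-free period. In whole tissue, fewer cells of a type and less RNA per cell cannot be told apart. Single arrays of the OVA group stood apart for some genes. OVA replicate 2 was the highest for many acute inflammatory genes and the lowest for several mast cell and type 2 genes, and OVA replicate 3 was the lowest for the mean of the cilia genes and for several of the cytochrome P450 genes described below. The test was therefore repeated 9 times, leaving out each array once. For many calls the number of these 9 fits that lost them is given, and a call printed without it was not always kept.

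In limma, 1481 of 23410 probe sets (6.33%) differed at an adjusted p under 0.05, 893 of them higher at 4 weeks (3.81%) and 588 lower (2.51%). Of the called probe sets 60.3% were higher, and 67.4% after median centring of the arrays. With each gene represented by 1 probe set, 1037 of 19938 genes were called (5.2%), 523 higher (2.62%) and 514 lower (2.58%), and the median change of all genes was −0.03 on the log2 scale. The surplus of higher calls lay in further probe sets of genes with several, and in probe sets of several genes. Of 251 calls among further probe sets of such genes 214 were higher, and of 193 calls among probe sets shared by several genes 156 were higher. Between the groups, 12.5% of genes had all 4-week arrays above all OVA arrays, and 14.4% had them all below. A member "rose" or "fell" below only where it passed at an adjusted p under 0.05 over all 23410 probe sets, and changes are always 4 weeks minus OVA on the log2 scale.

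Against this background, 59 lists and families of genes ranked from a median change of −0.61 for small nucleolar RNAs to 0.47 for conjugation and detoxification enzymes. The lists with the largest shares of lower calls were small nucleolar RNAs (25 of 54), the oncostatin, IL-6 and STAT3 pathway (8 of 20) and the NF-kappaB pathway (7 of 19). The lists with the largest shares of higher calls were translation factors (11 of 29), conjugation enzymes (10 of 30), cytosolic ribosomal proteins (16 of 56) and glucocorticoid-responsive genes (5 of 19). By these counts the mucosa held less transcript of many early inflammatory regulators and small nucleolar RNAs at 4 weeks, and more of many detoxification and translation genes, than 2 h after a challenge.

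**Figure D1:**
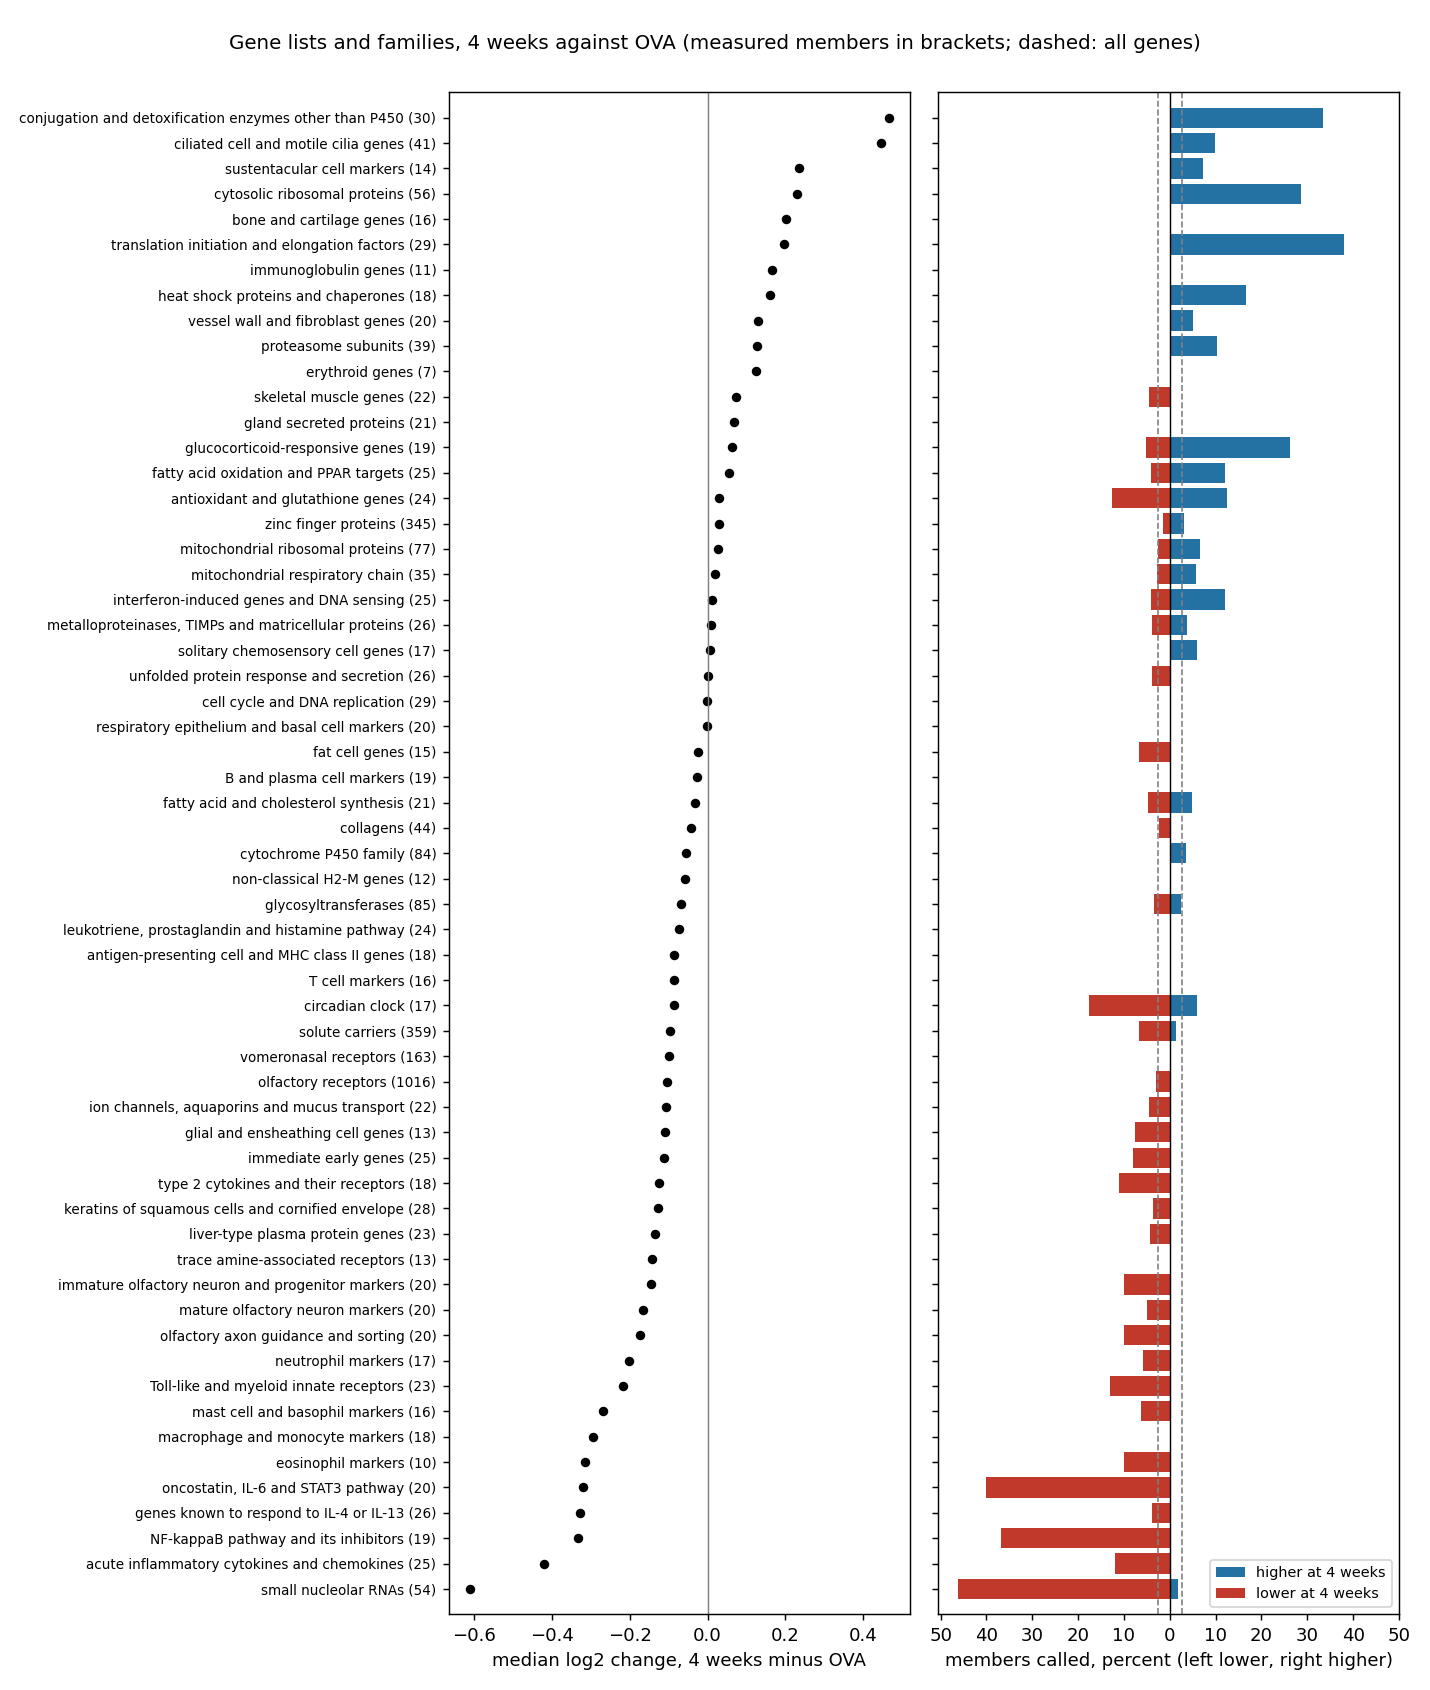
The left panel plots the median log2 change (4 weeks minus OVA) of each list or family, with the number of measured members in brackets, and the right panel the percent of members called lower (red, left) or higher (blue, right). Dashed lines mark the shares of all genes, 2.58% lower and 2.62% higher. The lists at the foot, small nucleolar RNAs and inflammatory lists, have red bars only or nearly so, and conjugation enzymes, ribosomal proteins and translation factors have blue bars only.

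The members of the inflammatory lists that fell include genes whose promoters are classical examples of NF-kappaB and STAT control. Stretches of 80 bases upstream of 6 gene starts are shown, because they let the letters be read that the transcription factors' known motifs use (RefSeq, GRCm38.p6, on the gene's own strand, motif matches in capitals). The NF-kappaB motif was searched as GGG, any pair of bases and TTTCC, the STAT motif as TTCNNNGAA and the glucocorticoid receptor motif as GNACA, any 3 bases and TGTNC, each on both strands, in windows from 250 bases before to 50 bases after each start.
Cxcl2, NF-kappaB motif, 130 to 51 bases before the start, chr5:90903769-90903848, + strand: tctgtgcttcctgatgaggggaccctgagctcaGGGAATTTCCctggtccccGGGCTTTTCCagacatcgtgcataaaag
Ccl20, NF-kappaB motif, 130 to 51 bases before the start, chr1:83116636-83116715, + strand: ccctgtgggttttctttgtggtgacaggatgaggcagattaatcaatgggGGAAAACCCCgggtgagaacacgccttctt
Nfkb2, NF-kappaB motif, 80 to 1 bases before the start, chr19:46304657-46304736, + strand: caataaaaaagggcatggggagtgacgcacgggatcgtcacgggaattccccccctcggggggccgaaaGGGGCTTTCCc
Socs3, STAT motif, 190 to 111 bases before the start, chr11:117969477-117969556, − strand: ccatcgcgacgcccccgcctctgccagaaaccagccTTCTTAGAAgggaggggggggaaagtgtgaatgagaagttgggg
Sbno2, STAT motif, 80 to 1 bases before the start, chr10:80102703-80102782, − strand: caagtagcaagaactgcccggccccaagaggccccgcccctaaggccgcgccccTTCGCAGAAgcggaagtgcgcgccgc
Sgk1, glucocorticoid receptor motif, 220 to 141 bases before the start, chr10:21993670-21993749, + strand: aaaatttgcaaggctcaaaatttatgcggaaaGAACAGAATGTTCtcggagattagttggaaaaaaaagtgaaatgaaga
Of the 18 genes of the acute cytokine, NF-kappaB and STAT3 lists that fell, 17 matched the promoter table, with 24 start windows. The NF-kappaB letters stood in 7 of these 24 windows (29.2%, of Ccl20, Cxcl2, Il1rn and Nfkb2), against 1.63% of all 32851 windows. The STAT letters stood in 5 of 24 (20.8%, of Nfkb2, Sbno2, Socs3 and Tnip2), against 8.3% of all windows. The E-box CACGTG, which the clock's activator binds, was searched as well. It stood in 0 of 4 windows of the called clock genes, of which 3 of 4 matched the promoter table. It stood in 1 of 24 windows of the inflammatory genes (4.17%) and 2 of 12 of the risen glucocorticoid-responsive genes (16.7%), against 7.15% of all windows. Sites outside these windows were not searched. A match is a description of the letters, and windows of a gene with several starts overlap. The lists were made of genes known for these pathways, and list members that were not called were not counted separately. The shares therefore do not tell called members from the rest of their lists.

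Neutrophil-attracting and dendritic-cell-attracting chemokines were among the transcripts that fell furthest. Cxcl2, a ligand of the neutrophil receptor CXCR2, read 6.07, 8.21 and 6.30 at 2 h and 4.49, 5.01 and 4.66 at 4 weeks. The groups did not overlap, and OVA replicate 2 stood far above the other OVA arrays. The change was −2.14 (SE 0.47, 4.39-fold lower, n = 3 per group, limma adjusted p = 0.0344), and the call was lost in 6 of the 9 fits. Ccl20, the ligand of CCR6 on dendritic cells and lymphocytes, read 7.47, 9.80 and 9.42 at 2 h and 6.61, 6.96 and 6.56 at 4 weeks. OVA replicate 1 was close to the 4-week arrays, and the change of −2.19 (SE 0.51, limma adjusted p = 0.0397) lost its call in 8 of 9 fits. Il1rn, which encodes the IL-1 receptor antagonist, fell by 0.53 (SE 0.11, limma adjusted p = 0.0283, lost in 5 of 9 fits).

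Of the 25 acute cytokines and chemokines these 3 fell (12%) and 0 rose in limma, and the median change was −0.42. At an unadjusted p under 0.05, 12 were lower and 0 higher. Members below 0 numbered 23, and in 10 of the 25 all 4-week arrays lay below all OVA arrays, against 14.4% of all genes. The count was 6 without OVA replicate 1, 2 without 4-week replicate 3, OVA replicate 2 or control replicate 1, and 0 without 4-week replicate 1, 4-week replicate 2, OVA replicate 3 or control replicate 2. Il6 read 3.01, 5.12 and 4.91 at 2 h and 2.70, 2.94 and 3.01 at 4 weeks. OVA replicate 1 was at the level of the 4-week and control arrays, and the change of −1.46 (SE 0.46) had a limma adjusted p of 0.0938. Cxcl1, a close relative of Cxcl2, had a change of −1.04 (limma adjusted p = 0.0837) and Tnf of −0.40 (limma adjusted p = 0.378). Il1b, the IL-1 beta gene, read 7.68, 8.33 and 7.55 at 2 h, 6.98, 7.41 and 7.25 at 4 weeks and 6.09, 5.59 and 5.30 in the control arrays. The 3 groups did not overlap, and the change of −0.64 (SE 0.24) had a limma adjusted p of 0.153.

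**Figure D2:**
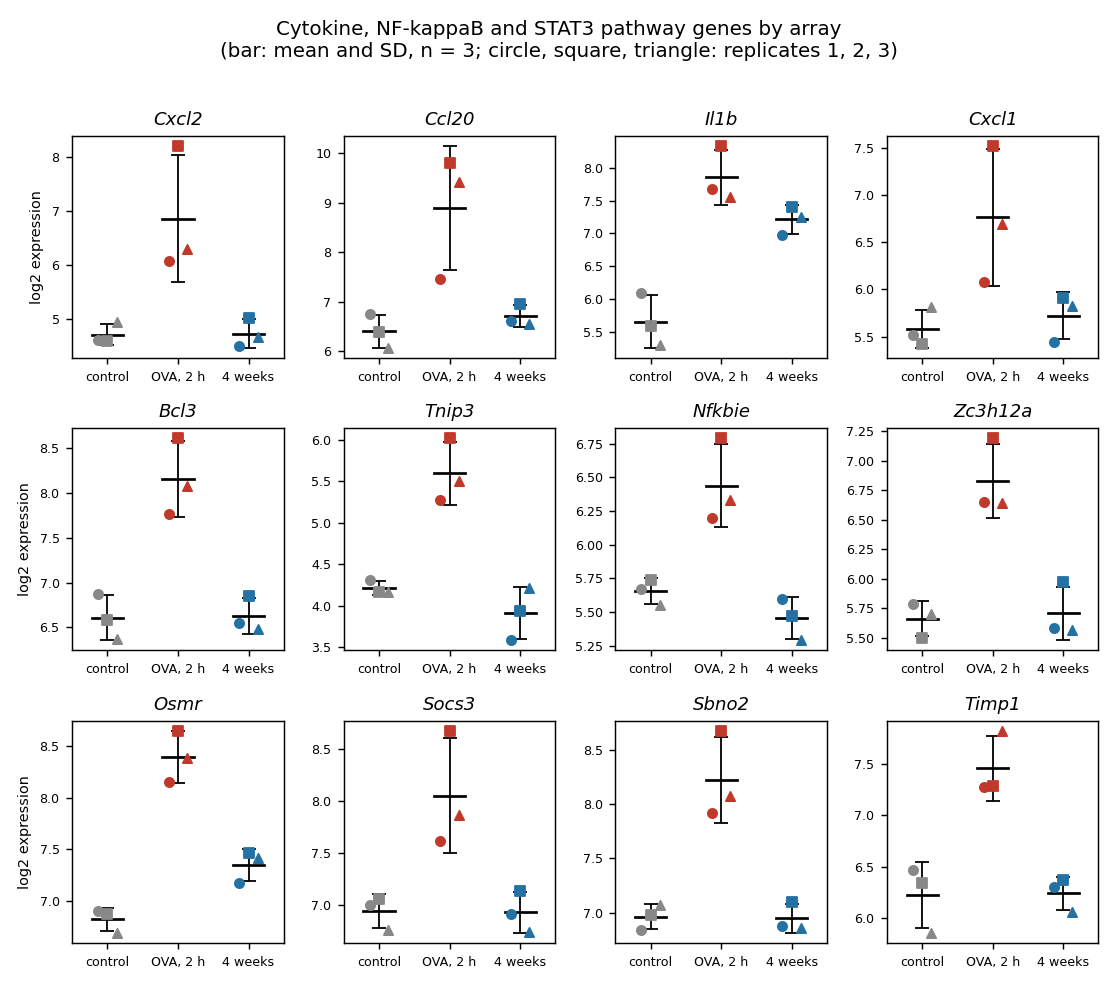
Log2 expression of 12 genes in each array, in control (grey), OVA (red) and 4-week (blue) arrays, with the group mean and SD (n = 3) and each panel on its own axis, which does not start at 0. In 12 of 12 panels all 4-week arrays lie below all OVA arrays, OVA replicate 2 (square) is the highest OVA array in every panel but that of Timp1, and Il1b stays above the control arrays at 4 weeks.

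Some inhibitors and partners of NF-kappaB fell. Of 19 measured members of the pathway, 7 fell (36.8%) and 0 rose in limma (12 lower and 0 higher at an unadjusted p under 0.05), with a median of −0.33, and 12 members did not pass. The count was 6 to 8 in the 9 fits. Tnip3, a partner of the A20 protein that restrains NF-kappaB, read 5.27, 6.02 and 5.50 at 2 h and 3.58, 3.93 and 4.21 at 4 weeks. All 4-week arrays lay below all OVA arrays. 4-week replicate 3 was within the range of the control arrays (4.16 to 4.31), and replicates 1 and 2 were below it. Tnip3 fell by 1.69 (SE 0.20, 3.24-fold lower, limma adjusted p = 0.00455). Nfkbie, an inhibitor that holds NF-kappaB in the cytoplasm, read 6.20, 6.79 and 6.33 at 2 h and 5.60, 5.47 and 5.29 at 4 weeks, a change of −0.99 (SE 0.15, limma adjusted p = 0.00901). Nfkbib, its relative, fell by 0.59 (SE 0.08, limma adjusted p = 0.00703). Zc3h12a, an RNase that degrades cytokine transcripts, read 6.65, 7.19 and 6.64 against 5.58, 5.97 and 5.57 and fell by 1.12 (SE 0.17, 2.17-fold lower, limma adjusted p = 0.00901). These 4 calls were kept in all 9 fits. The list's 3 other falls, named after their values were seen, were those of the subunit genes Nfkb2 (−0.76) and Relb (−0.62) and of Tnip2 (−0.53).

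The 2 best known inhibitors, and Il1a, did not pass. Nfkbia, the IkappaB alpha gene, read 8.96, 9.78 and 8.83 at 2 h and 8.71, 9.30 and 8.84 at 4 weeks, so the groups overlapped. Its change was −0.24 (SE 0.24, limma adjusted p = 0.578) and ranged from −0.42 to 0.05 in the 9 fits, and all 6 arrays lay above the control arrays (8.04 to 8.13). Tnfaip3, the A20 gene, read 6.63, 7.65 and 7.21 at 2 h and 6.54, 6.70 and 6.60 at 4 weeks, and overlapped through OVA replicate 1 (−0.55, SE 0.21, limma adjusted p = 0.153). Il1a read 4.90, 5.38 and 5.48 at 2 h and 4.85, 5.19 and 4.88 at 4 weeks, and overlapped (−0.28, limma adjusted p = 0.386). These 3 were chosen after their values were seen, and whether they differ in change from the members that fell was not tested.

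The STAT3 pathway had the largest share of fallen members among the protein-coding lists. Of 20 members 8 fell (40%) and 0 rose in limma, with a median of −0.32 (10 lower and 1 higher at an unadjusted p under 0.05). The count was 4 without 4-week replicate 2, 4-week replicate 3 or OVA replicate 3, 5 without 4-week replicate 1 or control replicate 2, and at most 7 in any of the 9 fits. Bcl3, a nuclear regulator of NF-kappaB that STAT3 induces, read 7.77, 8.61 and 8.08 at 2 h and 6.55, 6.85 and 6.48 at 4 weeks, which were within the range of the control arrays (6.37 to 6.87). It fell by 1.53 (SE 0.21, 2.88-fold lower, limma adjusted p = 0.00727). Osmr, a receptor chain for oncostatin M, read 8.15, 8.65 and 8.39 against 7.17, 7.46 and 7.42. The 4-week arrays lay below all OVA arrays and above all control arrays (6.69 to 6.90), and the change was −1.05 (SE 0.13, 2.07-fold lower, limma adjusted p = 0.00515). Osm itself, the oncostatin M gene, had a change of −0.21 (limma adjusted p = 0.164).

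Sbno2, a regulator of transcription induced by IL-10 and IL-6, read 7.92, 8.68 and 8.08 at 2 h and 6.88, 7.10 and 6.86 at 4 weeks, a change of −1.28 (SE 0.18). Timp1, an inhibitor of metalloproteinases, read 7.27, 7.28 and 7.82 against 6.30, 6.37 and 6.06 and fell by 1.21 (SE 0.19, limma adjusted p = 0.0105). The 4-week arrays of both genes were at the level of the control arrays, and neither call was lost in any of the 9 fits, nor were those of Bcl3 and Osmr. Socs3, the feedback inhibitor of IL-6 signalling, read 7.61, 8.67 and 7.86 against 6.91, 7.13 and 6.74 on the probe set with the higher mean (−1.12, limma adjusted p = 0.0313, lost in 5 of 9 fits). A second Socs3 probe set overlapped between the groups (−0.17, limma adjusted p = 0.563). The remaining falls of the list were Junb, an AP-1 subunit (−0.52, limma adjusted p = 0.0494, lost in 7 of 9 fits), and, named after their values were seen, the kinase gene Pim1 (−0.72) and Stat3 itself (−0.32). The calls of Pim1 and Stat3 were lost in 4 and 8 of the 9 fits.

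Among the genes that fell were 3 receptors of granulocyte growth factors. Csf2rb2, the IL-3 receptor chain particular to the mouse, read 7.12, 7.38 and 7.12 at 2 h and 5.93, 6.21 and 6.13 at 4 weeks, a change of −1.12 (SE 0.14, 2.17-fold lower, limma adjusted p = 0.00497) kept in all 9 fits. Csf2rb, the chain shared by the receptors of IL-3, IL-5 and GM-CSF, read 7.38, 7.42 and 7.56 against 6.54, 6.58 and 6.64 (−0.87, limma adjusted p = 0.0381, lost in 7 of 9 fits). The 2 genes are near-identical copies, so the probe sets may share signal. They were the falls among 18 type 2 cytokines and receptors, with 0 rises (6 lower and 0 higher at an unadjusted p under 0.05). Csf3r, the G-CSF receptor of neutrophils, read 7.40, 7.25 and 7.15 against 6.17, 6.13 and 6.46 (−1.02, SE 0.19, limma adjusted p = 0.0212, lost in 5 of 9 fits). It was the fall among 17 neutrophil markers, of which S100a8 (0.03) and S100a9 (0.18), the most abundant neutrophil proteins, overlapped between the groups and took the other sign without 4-week replicate 1 or OVA replicate 3.

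Of 23 Toll-like and other innate receptors, Clec4d, Trem1 and Nod2 fell (−0.76, −0.65 and −0.64) and 0 rose in limma (8 lower and 1 higher at an unadjusted p under 0.05). When any of the 4-week arrays or control replicate 2 was left out, 0 of the list fell. Cish, a feedback inhibitor of STAT5, was the fall among 26 genes that respond to IL-4 or IL-13 (6.70, 7.30 and 7.01 against 6.09, 6.27 and 6.19, −0.82, limma adjusted p = 0.0235, lost in 5 of 9 fits). The median of that list was −0.33, with 10 lower and 2 higher at an unadjusted p under 0.05, and 5 of its members fell without OVA replicate 2. Sting1, the adaptor of cytosolic DNA sensing, read 8.26, 8.24 and 8.29 at 2 h and 7.20, 7.26 and 6.90 at 4 weeks and fell by 1.15 (SE 0.16, limma adjusted p = 0.00772, kept in all 9 fits). In the same list of 25 interferon-induced and DNA-sensing genes Sp140 (1.01), Sp100 (0.79) and Rsad2 (0.72) rose. Rsad2, an antiviral protein, read 5.80, 5.51 and 5.75 against 6.60, 6.63 and 5.98, and these 3 rises were lost in 6 to 8 of the 9 fits. Rhbdf2, which brings the TNF-releasing protease to the cell surface, read 7.13, 7.30 and 7.21 against 6.45, 6.56 and 6.42 and fell by 0.73 (SE 0.07, limma adjusted p = 0.00225, kept in all 9 fits).

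Effector genes of type 2 inflammation differed widely among the OVA arrays, and those described here did not pass with all 9 arrays. Retnla, a secreted protein of alternatively activated macrophages, read 6.98, 3.88 and 7.79 at 2 h and 3.37, 3.43 and 4.19 at 4 weeks. OVA replicate 2 was at the level of the 4-week and control arrays, and the change of −2.55 (SE 0.82) had a limma adjusted p of 0.1. Mcpt1, a mucosal mast cell protease, read 9.37, 5.98 and 9.95 against 6.42, 6.71 and 7.10 (−1.69, SE 0.88, limma adjusted p = 0.278). The 4-week arrays of Mcpt1 lay above all control arrays (3.83 to 5.08). Chil4, a chitinase-like protein, read 11.54, 8.27 and 11.29 against 9.02, 7.12 and 6.98 (−2.66, SE 1.18, limma adjusted p = 0.21). In all 3 genes OVA replicate 2 was the lowest OVA array, whereas it was the highest for Cxcl2, Ccl20, Tnip3 and Bcl3. Without it Retnla (−3.73, limma adjusted p = 0.00806) and Mcpt1 (−2.92, limma adjusted p = 0.0165) passed, as did Ccl11, Chil3, Mrc1 and Alox15 of the IL-4 and IL-13 response genes. Of the same response genes, Clca1 fell without 4-week replicate 1 (−0.95, limma adjusted p = 0.0466). Postn, also one of them, rose without 4-week replicate 3 (1.10, limma adjusted p = 0.0282).

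The eosinophil-attracting chemokines Ccl11 (−1.06, limma adjusted p = 0.0813) and Ccl24 (−0.86, limma adjusted p = 0.147) did not overlap between the groups but did not pass. The mucin gene Muc5ac read 10.66, 9.13 and 9.47 against 9.05, 8.10 and 7.67, with no overlap (−1.48, SE 0.80, limma adjusted p = 0.297), and Clca1, a goblet cell protein, had a change of −0.70 (limma adjusted p = 0.11). The mucin gene Muc5b (−0.23), the chitinase-like gene Chil3 (−0.79) and Cpa3, a mast cell carboxypeptidase (−0.34), overlapped. The type 2 cytokine genes did not pass either, with changes of −0.17 for Il4, −0.14 for Il5 and −0.44 for Il13 (limma adjusted p = 0.101). Among epithelial cytokines Il33 had a change of 0.35, Tslp of 0.06 and Il25 of −0.05, all with overlap, and the chemokine gene Ccl17 of 0.05. The signs of Tslp, Il25 and Ccl17 depended on which array or scaling was used.

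With all 9 arrays few markers of immune cells passed, and without OVA replicate 2 more did. Of 10 eosinophil markers Cebpe, a transcription factor of granulocytes, fell (−0.54, lost in 9 of 9 fits) and 0 rose in limma (3 lower and 0 higher at an unadjusted p under 0.05), with a median of −0.32, and the granule genes Epx (−0.32) and Prg2 (−0.61) overlapped. Of 16 mast cell and basophil markers Rasgrp4, a Ras activator of mast cells, fell (−1.24, limma adjusted p = 0.0381, lost in 6 of 9 fits) and 0 rose (2 lower and 0 higher unadjusted). Without OVA replicate 2 the mast cell proteases Mcpt1, Mcpt2, Mcpt4 and Tpsab1 fell, and Rasgrp4 did not pass. The mean level of the 18 macrophage and monocyte markers was 6.14 to 6.70 in the OVA and 6.15 to 6.18 in the 4-week arrays, with 0 of 18 called in limma and 7 at an unadjusted p under 0.05, all lower. Without OVA replicate 2, the lowest OVA array in this mean, 6 of the 18 fell, namely the complement genes C1qb and C1qc (limma adjusted p = 0.0212), the receptors Cd163, Mrc1 and Ccr2, and Adgre1. Of 18 antigen-presenting cell, 16 T cell and 19 B and plasma cell markers 0 were called, with 2, 1 and 1 at an unadjusted p under 0.05. Foxp3, the factor of regulatory T cells, had a change of 0.15 (limma adjusted p = 0.286) and Cd4 of −0.20. Mean levels of the markers in the 2 groups overlapped for neutrophils (6.83 to 7.24 against 6.31 to 7.16), mast cells (5.35 to 6.10 against 5.33 to 5.46) and eosinophils (5.56 to 6.10 against 5.42 to 5.71). The part of cell numbers in the falls above was not tested.

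The largest fall among the called genes was that of an epithelial gene. Sprr1a, a protein of the cornified envelope that injured epithelium also makes, read 8.95, 9.69 and 9.87 at 2 h and 6.74, 6.64 and 6.98 at 4 weeks. The groups were far apart, but control replicate 1 (9.45) was at the OVA level and the other control arrays (6.84 and 6.59) at the 4-week level. The change was −2.72 (SE 0.65, 6.59-fold lower, limma adjusted p = 0.0422, lost in 7 of 9 fits). It was the fall among 28 squamous and cornified envelope genes, of which 0 rose in limma (4 lower and 0 higher at an unadjusted p under 0.05). Mab21l3 read 5.76, 6.35 and 6.36 against 4.90, 5.09 and 5.05 and fell by 1.14 (SE 0.16, limma adjusted p = 0.00713, kept in all 9 fits).

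Immediate early genes, which cells switch on within minutes of a stimulus, held few calls. Of 25 members Nr4a3 and Junb fell and 0 rose in limma (7 lower and 2 higher at an unadjusted p under 0.05), with a median of −0.11. Nr4a3, an orphan nuclear receptor, read 5.99, 6.88 and 6.01 at 2 h and 5.12, 5.26 and 5.47 at 4 weeks (−1.02, limma adjusted p = 0.0299, lost in 5 of 9 fits). Egr1 read 7.38, 7.89 and 7.12 against 6.29, 6.35 and 7.04, without overlap (−0.90, SE 0.23, limma adjusted p = 0.0504). The count of falls was 0 without 4-week replicate 1, 4-week replicate 2, OVA replicate 3 or control replicate 2.

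The circadian clock, a feedback loop in which the activator Arntl (BMAL1) and its repressors oscillate over the day, differed at several of its parts. Nr1d1 encodes REV-ERB alpha, which represses Arntl. It read 8.34, 8.53 and 8.42 at 2 h and 7.18, 7.02 and 7.33 at 4 weeks, which were clearly the lower, and 9.37, 9.11 and 8.86 in the control arrays. The change was −1.26 (SE 0.13, 2.39-fold lower, limma adjusted p = 0.00352) and was kept in all 9 fits. Bhlhe40, a repressor of the clock that hypoxia and cytokines also induce, read 7.95, 8.20 and 8.23 against 6.88, 7.09 and 7.14 and fell by 1.10 (SE 0.12, limma adjusted p = 0.00356, kept in all 9 fits). Its control arrays (6.97 to 7.32) were at the 4-week level.

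Dbp, an output gene of the clock, read 7.36, 7.57 and 7.17 against 6.88, 6.72 and 6.92 (−0.53, limma adjusted p = 0.0336, lost in 6 of 9 fits). Arntl itself rose, from 7.10, 6.69 and 6.81 to 7.35, 7.77 and 7.36 (0.63, SE 0.15, limma adjusted p = 0.045, lost in 7 of 9 fits). The period genes Per1 (0.48, limma adjusted p = 0.0857) and Per2 (0.19, limma adjusted p = 0.393) did not overlap between the groups and did not pass. In all, 3 of 17 clock genes fell and 1 rose, and the other 13 did not pass. The hour of collection is not given in the labels, so a difference in time of day cannot be told apart from the allergen-free period.

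Glucocorticoid-responsive genes, which adrenal hormones and steroid drugs induce through the glucocorticoid receptor, rose in part. Of 19 members 5 rose (26.3%) and 1 fell, with a median of 0.06, and the count of rises was 3 without 4-week replicate 2 or OVA replicate 2. Tsc22d3, the anti-inflammatory protein GILZ, read 6.86, 7.08 and 6.99 at 2 h and 7.88, 8.30 and 7.97 at 4 weeks, while control arrays (6.72 to 6.84) lay below both. It rose by 1.07 (SE 0.11, 2.1-fold higher, limma adjusted p = 0.00314). Sgk1, the kinase whose promoter stretch is printed above, read 8.21, 8.12 and 7.84 against 8.63, 8.99 and 8.65 and rose by 0.70 (SE 0.12, limma adjusted p = 0.0145). Sult1a1, a sulfotransferase, read 6.31, 6.20 and 6.36 against 6.84, 7.27 and 6.98 and rose by 0.74 (SE 0.10, limma adjusted p = 0.00733). These 3 calls were kept in all 9 fits.

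Ddit4, an inhibitor of the growth kinase mTOR, rose by 0.71 (limma adjusted p = 0.0146, lost in 2 of 9 fits), and the metabolic regulator Klf15, named after its value was seen, by 0.35 (limma adjusted p = 0.0238). Other classical members did not pass. Fkbp5 read 6.69, 6.72 and 6.49 at 2 h and 6.48, 6.82 and 6.43 at 4 weeks, with overlap (−0.06, limma adjusted p = 0.807), and Dusp1 (0.01, limma adjusted p = 0.973) and Pdk4 (−0.13, limma adjusted p = 0.704) overlapped as well. Mt2, a metallothionein, fell by 0.57 (limma adjusted p = 0.0178, lost in 4 of 9 fits). Fkbp5, Dusp1 and Pdk4 were singled out once their values were known. The glucocorticoid receptor letters stood in 1 of 12 start windows of the 5 genes that rose, that of Sgk1, against 0.475% of all windows. Among 18 heat shock and chaperone genes Hspa1a (0.42), Dnaja1 (0.38) and Hspb8 (0.31) rose and 0 fell in limma (8 higher and 0 lower at an unadjusted p under 0.05), and their calls were lost in 4 to 6 of the 9 fits. The count was 0 without OVA replicate 3, 1 without any other OVA or 4-week array, 2 without control replicate 2 and 5 without control replicate 1.

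**Figure D3:**
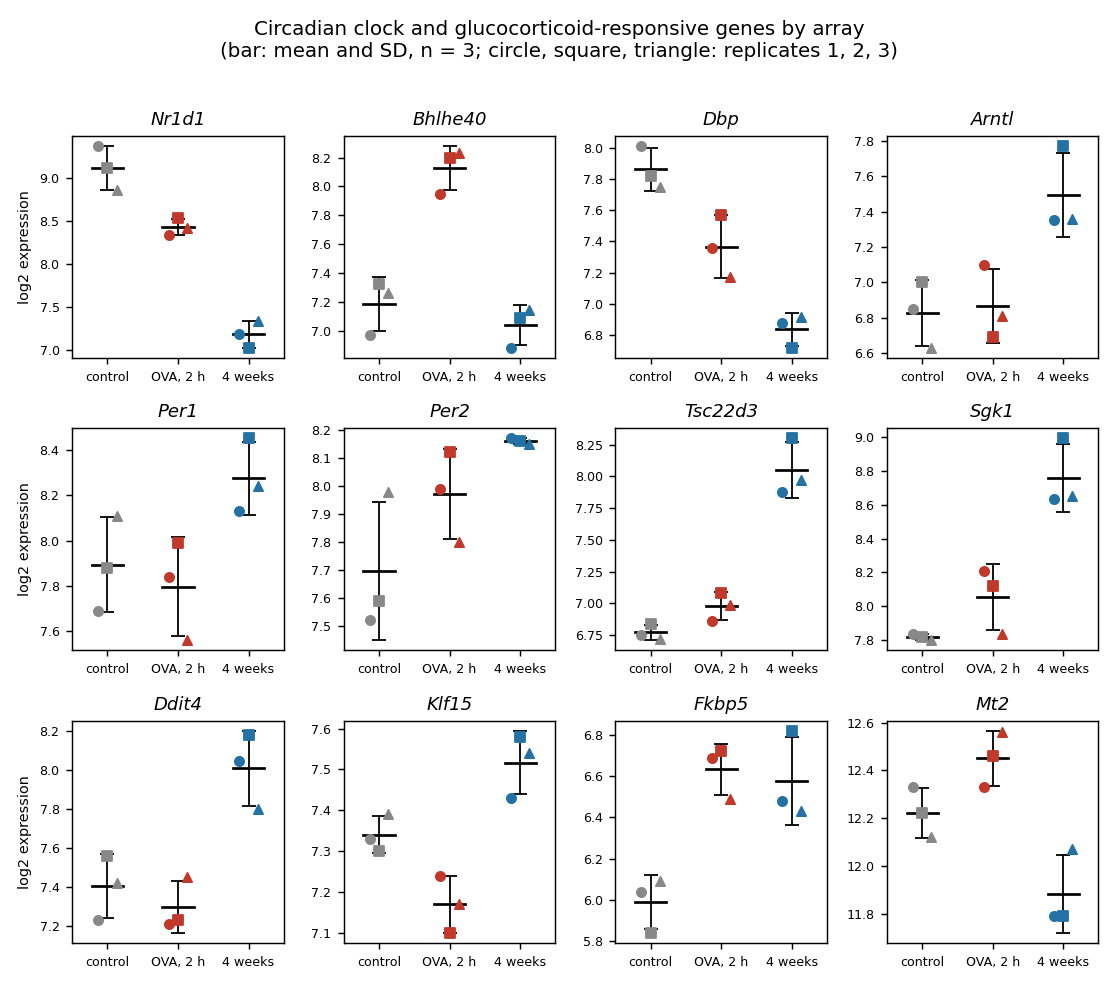
Log2 expression of 6 clock genes and 6 glucocorticoid-responsive genes in each array, with the group mean and SD (n = 3) and each panel on its own axis, which does not start at 0. Nr1d1 and Dbp are lowest and Arntl highest in the 4-week arrays, Tsc22d3, Sgk1, Ddit4 and Klf15 stand apart at 4 weeks, and Fkbp5 overlaps between OVA and 4-week arrays.

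Detoxification enzymes other than P450 had the highest median change of the lists in the deposited values (0.47, against 0.44 for cilia genes). After quantile normalization cilia genes had the highest (0.48 against 0.40). The nasal mucosa, its olfactory part above all, is rich in cytochrome P450 enzymes that oxidise inhaled chemicals and odorants, and in enzymes that conjugate the products. Of 84 P450 genes 3 rose (3.57%) and 0 fell in limma (16 higher and 8 lower at an unadjusted p under 0.05), close to the share of all genes, and the family median was −0.06 (0.03 after quantile normalization). Cyp4a12a, a fatty acid omega-hydroxylase, read 8.47, 9.21 and 8.11 at 2 h and 10.01, 9.87 and 10.21 at 4 weeks. The 4-week arrays lay above the control arrays (9.01 to 9.41) too, but the control arrays carried the female pattern of sex-linked transcripts. Cyp4a12a rose by 1.44 (SE 0.25, 2.71-fold higher, limma adjusted p = 0.0146), in all 9 fits. Its near-identical copy Cyp4a12b (1.09, lost in 7 of 9 fits) may share the signal. Cyp2b10 read 8.54, 8.29 and 7.42 against 9.32, 9.46 and 9.39, with OVA replicate 3 far below the rest (1.31, limma adjusted p = 0.0303, lost in 6 of 9 fits).

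Of 30 conjugation and other detoxification enzymes 10 rose (33.3%) and 0 fell in limma (16 higher and 0 lower at an unadjusted p under 0.05), with a median of 0.47. The count was 4 without 4-week replicate 2 or OVA replicate 3, 6 without 4-week replicate 1 or 4-week replicate 3, and at most 9 in the 9 fits. After quantile normalization it was 7. Ephx1, an epoxide hydrolase, read 9.31, 9.14 and 9.01 at 2 h and 10.06, 9.88 and 9.81 at 4 weeks, and rose by 0.76 (SE 0.10, limma adjusted p = 0.00616). Gsta3, a glutathione transferase, read 8.93, 9.07 and 8.59 against 9.62, 9.80 and 9.63 and rose by 0.82 (SE 0.12, limma adjusted p = 0.00883). Ces1f, a carboxylesterase, read 7.52, 7.62 and 7.83 against 8.33, 8.27 and 8.62 and rose by 0.75 (SE 0.11, limma adjusted p = 0.00847). The 3 calls, like that of Sult1a1, were kept in all 9 fits.

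Aox3, an aldehyde oxidase, read 8.92, 8.78 and 8.52 against 9.60, 9.84 and 9.78 and rose by 1.00 (SE 0.17, limma adjusted p = 0.0142, lost in 2 of 9 fits). Gstm1, also counted as a sustentacular cell gene, rose by 0.48 (limma adjusted p = 0.0454, lost in 8 of 9 fits). The other 4 rises, named after their values were seen, were those of Fmo1 (0.87), Ces1d (0.57), Gstm3 (0.53) and Gsta4 (0.35). Their calls were lost in 2, 4, 8 and 7 of the 9 fits, in this order. P450 enzymes typical of the sustentacular cell did not pass. Cyp2g1 read 12.79, 12.87 and 12.69 against 12.99, 12.79 and 12.79 and overlapped (0.08, limma adjusted p = 0.66), and Cyp1a2 had a change of 0.37 (limma adjusted p = 0.0584). The mean of the 14 sustentacular markers was 10.03 to 10.32 in the OVA and 10.38 to 10.52 in the 4-week arrays, with Gstm1 as the call. Their median change was 0.23, with 12 of 14 above 0 (7 higher and 1 lower at an unadjusted p under 0.05). In 8 of the 14 all 4-week arrays lay above all OVA arrays, against 12.5% of all genes. The part of these cells in the rises of detoxification enzymes was not tested.

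**Figure D4:**
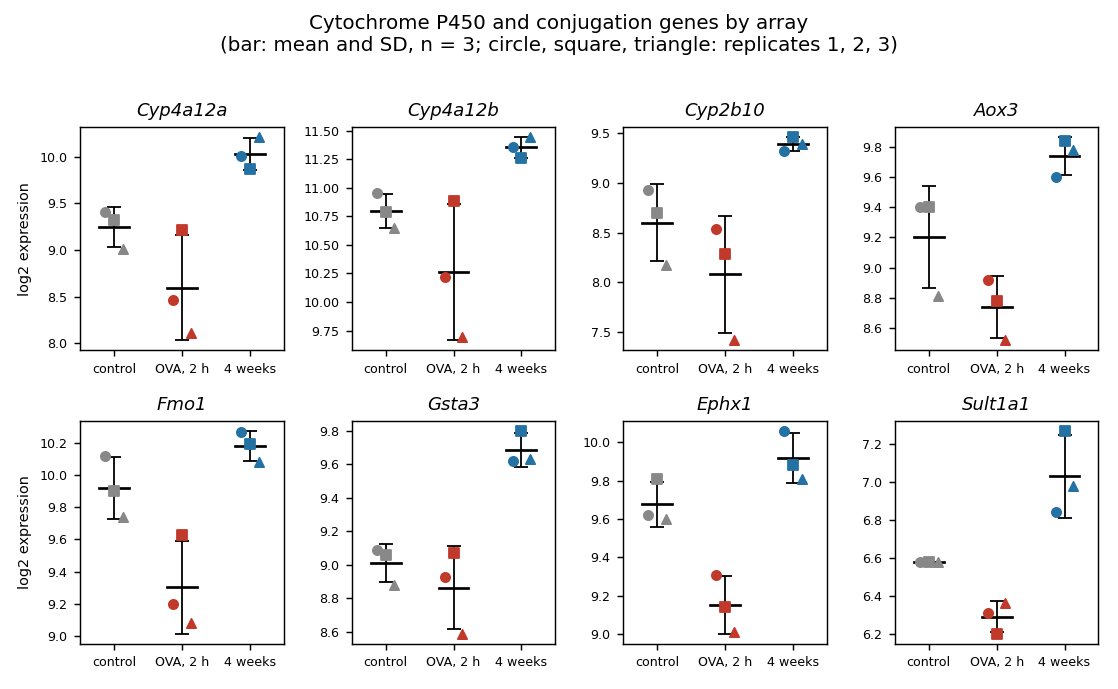
Log2 expression of 3 cytochrome P450 genes and 5 other detoxification genes in each array, with the group mean and SD (n = 3) and each panel on its own axis, which does not start at 0. All 4-week arrays lie above all OVA arrays in the 8 panels, and OVA replicate 3 (triangle) is the lowest OVA array in each except that of Sult1a1.

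Antioxidant genes went both ways. Prdx1, a peroxiredoxin, read 10.37, 10.21 and 10.21 at 2 h and 10.93, 10.91 and 11.07 at 4 weeks and rose by 0.70 (SE 0.08, limma adjusted p = 0.00353, kept in all 9 fits). Gpx8, a peroxidase of the endoplasmic reticulum, read 7.49, 7.36 and 7.32 against 8.42, 8.53 and 8.17 and rose by 0.98 (SE 0.11, limma adjusted p = 0.00422, kept in all 9 fits). Slc7a11, the cystine importer that feeds glutathione synthesis, read 8.27, 8.59 and 8.09 against 7.38, 7.47 and 7.5 and fell by 0.87 (limma adjusted p = 0.0264, lost in 5 of 9 fits). The list of 24 held 3 rises (with the catalase gene Cat) and 3 falls (with Mt2 and the superoxide dismutase gene Sod1, −0.36), and its median was 0.03, or −0.03 after quantile normalization. The calls of Cat and Sod1 were lost in 4 and 5 of the 9 fits. Selenbp1 and Selenbp2, near-identical genes of selenium-binding proteins, rose by 0.97 and 0.96. Selenbp1 read 6.84, 7.07 and 6.61 against 7.75, 7.92 and 7.75.

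Few genes of lipid metabolism passed. In the fatty acid oxidation list Acot2 (0.65, limma adjusted p = 0.0174), Hadhb (0.38) and Acaa2 (0.35), all enzymes of fatty acid breakdown, rose and the receptor gene Ppard fell (−0.44, lost in 7 of 9 fits). The counts of 3 rises and 1 fall among 25 became 0 and 0 without 4-week replicate 2, OVA replicate 2 or OVA replicate 3. In lipid synthesis the desaturase gene Fads2b read 6.07, 6.27 and 5.35 at 2 h and 7.19, 7.25 and 6.93 at 4 weeks (1.22, SE 0.26, limma adjusted p = 0.0315, lost in 6 of 9 fits), and the cholesterol synthesis gene Lss fell by 0.41. Of 24 leukotriene, prostaglandin and histamine genes 0 were called in limma, with 3 at an unadjusted p under 0.05. Ptgs2, the inducible cyclooxygenase gene, read 7.24, 7.89 and 7.52 against 6.32, 6.14 and 7.42 (−0.93, limma adjusted p = 0.108), with 4-week replicate 3 at the OVA level.

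Genes of the translation machinery rose in several of its parts. Ribosomal proteins form the ribosome together with ribosomal RNA, initiation factors bring messenger RNA to it, and elongation factors deliver amino acids. Of 56 measured cytosolic ribosomal protein genes 16 rose (28.6%) and 0 fell in limma (33 higher and 2 lower at an unadjusted p under 0.05), with a median of 0.23, and 50 of 56 changes were above 0. The count was 11 without 4-week replicate 2 and at most 17 in the 9 fits. After quantile normalization it was 15, with a median of 0.18. Rpl27a read 9.06, 9.03 and 8.81 at 2 h and 9.71, 9.69 and 9.66 at 4 weeks, above the control arrays (9.12 to 9.19) as well, and all 9 of its probe sets rose. Rpl38, named after its values were seen, read 10.76, 10.53 and 10.63 against 11.32, 11.27 and 11.28 (0.65, limma adjusted p = 0.00769), and its control arrays were at the 4-week level. Ribosomal protein genes have many near-identical processed copies in the genome, so probe sets may pick up other transcripts.

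Of 29 initiation and elongation factors and related proteins 11 rose (37.9%) and 0 fell in limma (16 higher and 0 lower at an unadjusted p under 0.05), with a median of 0.20. The count was 5 without 4-week replicate 1, OVA replicate 2 or OVA replicate 3, 6 without 4-week replicate 2 and 7 without control replicate 2. After quantile normalization it was 7, with a median of 0.20. Eef1b2, an exchange factor of elongation, read 8.84, 8.70 and 8.61 at 2 h and 9.27, 9.40 and 9.37 at 4 weeks and rose by 0.63 (SE 0.08, limma adjusted p = 0.00554). Eif3k, a subunit of initiation factor eIF3, read 8.19, 8.21 and 8.05 against 8.77, 8.69 and 8.70 and rose by 0.57 (SE 0.08, limma adjusted p = 0.00728). Eif4a2, an RNA helicase, rose by 0.65 and Eif4b by 0.39, and these 4 calls were kept in all 9 fits. Proteasome subunits, which degrade proteins, held 4 rises among 39 and 0 falls (17 higher and 3 lower unadjusted), all 4 lost without 4-week replicate 1, 4-week replicate 2, OVA replicate 2 or OVA replicate 3. Mitochondrial ribosomal proteins held 5 rises (6.49%) and 2 falls (2.6%) among 77, against 2.62% and 2.58% of all genes. The largest rise was that of Mrps21, from 9.24, 9.18 and 8.97 to 10.13, 10.27 and 9.75 (0.92, limma adjusted p = 0.011, kept in all 9 fits). The rises of this family numbered 1 without 4-week replicate 1, OVA replicate 2 or OVA replicate 3.

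Small nucleolar RNAs, which guide the chemical modification and cutting of ribosomal RNA and mostly lie in introns of other genes, held the largest share of falls. Of 54 measured small nucleolar and Cajal body RNAs 25 fell (46.3%) and 1 rose, with a median of −0.61. In 37 of the 54 all 4-week arrays lay below all OVA arrays, against 14.4% of all genes. The count of falls was 15 without 4-week replicate 2 or OVA replicate 2, 16 without OVA replicate 3 and at most 24 in the 9 fits. Snord118, the U8 RNA needed to cut the precursor of the large ribosomal RNAs, read 10.35, 10.33 and 10.48 at 2 h and 8.22, 8.13 and 8.44 at 4 weeks, with control arrays at 8.54 to 9.04. It fell by 2.12 (SE 0.14, 4.36-fold lower, limma adjusted p = 0.001). Snora44 read 9.40, 9.41 and 9.46 against 7.41, 7.59 and 7.78 and fell by 1.83 (SE 0.15, limma adjusted p = 0.00174). Snora16a fell by 1.34 and Snora52 fell by 1.41, the latter from 11.57, 11.79 and 11.74 to 10.13, 10.25 and 10.49 and below its control arrays (11.49 to 11.58). The 4 calls were kept in all 9 fits.

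Of the fallen small RNAs 11 lie within 10 genes measured here by the RefSeq coordinates, and 3 of these genes rose while 0 fell in limma. Snora3 read 8.85, 9.04 and 8.97 at 2 h and 7.53, 7.20 and 7.59 at 4 weeks, a change of −1.51, while Rpl27a around it rose by 0.72. Snora31 fell by 1.2 and its gene Tpt1 rose by 0.40, and Snora41 fell by 1.12 and its gene Eef1b2 rose by 0.63. The other 7 containing genes did not pass. Of all genes 2.62% rose, and of cytosolic ribosomal protein genes 28.6%. Among genes around small RNAs that did not fall, Tcp1 (0.36), Rpsa (0.55), Ncl (0.33), Rpl4 (0.67) and Rps3a1 (0.56) rose as well, and the rest did not pass. A rise of the containing gene was therefore not particular to the fallen small RNAs. Among the small RNAs the exception in direction was Snord42b, which rose by 0.49 (limma adjusted p = 0.0227, lost in 4 of 9 fits). These pairs were picked with their values known. Total RNA was isolated with a column kit, and how well small RNAs were captured was not tested.

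**Figure D5:**
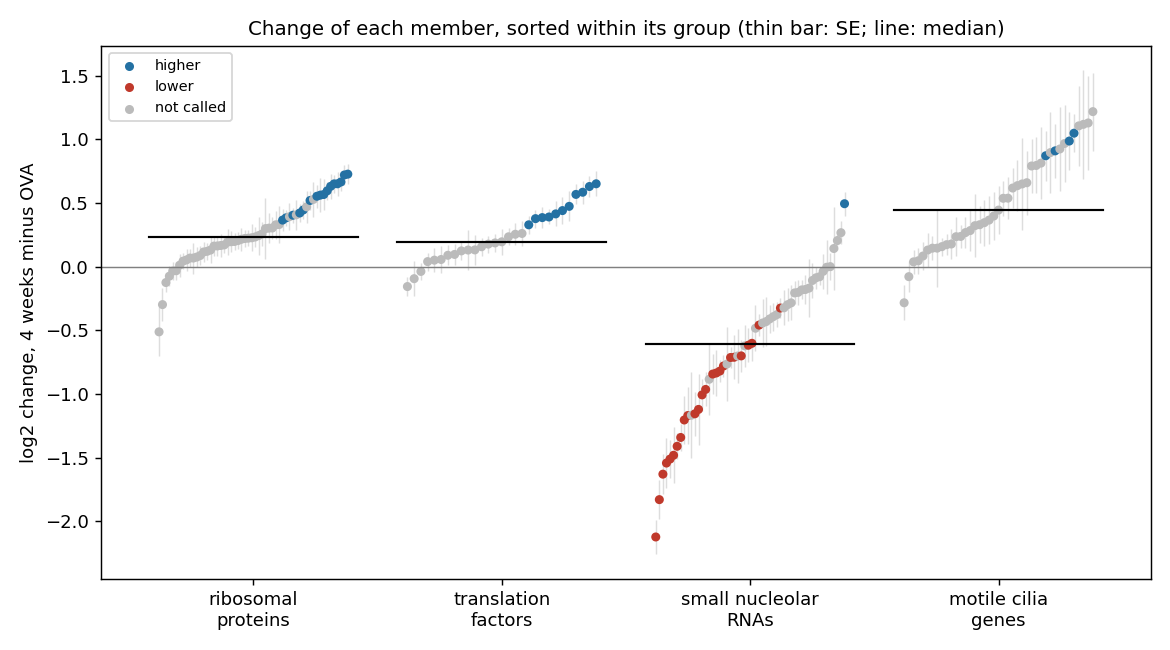
The log2 change (4 weeks minus OVA, with its SE) of every measured member of 4 groups, sorted within the group, with blue for higher, red for lower and grey for members not called, and a line at the median. Ribosomal proteins and translation factors lie mostly above 0 (medians 0.23 and 0.20), small nucleolar RNAs mostly below (−0.61), and cilia genes mostly above but with larger errors (0.44).

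Genes of motile cilia, the beating organelles that move mucus over the respiratory epithelium, were higher at 4 weeks with a wide spread. Of 41 members 4 rose (9.76%) and 0 fell in limma (22 higher and 0 lower at an unadjusted p under 0.05), with a median of 0.44. Changes were above 0 in 39, and in 28 of the 41 all 4-week arrays lay above all OVA arrays, against 12.5% of all genes. The mean of the list was 7.49, 7.40 and 6.92 at 2 h, 7.82, 7.81 and 7.73 at 4 weeks and 7.22 to 7.73 in the control, so OVA replicate 3 was the lowest array. The count was 1 without 4-week replicate 1, 4-week replicate 2 or control replicate 1, and 2 without 4-week replicate 3, OVA replicate 2, OVA replicate 3 or control replicate 2. Ccdc180 read 7.22, 7.08 and 6.89 against 7.97, 8.16 and 8.21 on its probe set of highest mean (1.05, SE 0.15, limma adjusted p = 0.00735, kept in all 9 fits). Of its 27 probe sets 13 rose and 0 fell in limma, with a median change of 0.56 and a range of −0.001 to 2.00. The dynein motor genes Dnah7a (0.87) and Dnah9 (0.91) and the signalling gene Rgs22 (0.99) rose too, with calls lost in 5, 7 and 8 of the 9 fits.

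Dnah3, another dynein gene, was chosen after its values were seen because 33 probe sets measured it. Of these 14 rose and 0 fell in limma, and 33 of 33 changes were above 0, with median levels over them of 7.82, 7.75 and 6.80 at 2 h and 8.42, 8.50 and 8.63 at 4 weeks. The probe set with the highest mean did not pass (1.22, limma adjusted p = 0.0512). Dnah7c, a near-identical relative of Dnah7a, rose by 0.97. Foxj1, the transcription factor that makes cells ciliated, read 7.58, 7.53 and 7.49 against 7.58, 7.60 and 7.56 and overlapped (0.05, SE 0.10, limma adjusted p = 0.82). The tubule gene Tekt1 (0.24, limma adjusted p = 0.379) and Rsph1 of the radial spoke (0.28, limma adjusted p = 0.315), both chosen after their values were seen, overlapped too. Whether dynein genes and Foxj1 differ in change was not tested. Of 20 respiratory and basal cell markers 0 were called in limma, with 2 at an unadjusted p under 0.05, and Scgb1a1, a club cell protein, overlapped (−0.07).

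Genes of the olfactory epithelium fell in small numbers. Omp, the marker protein of mature olfactory neurons, read 11.69, 11.87 and 11.91 at 2 h and 12.08, 11.47 and 11.78 at 4 weeks, and overlapped (−0.04, SE 0.15, limma adjusted p = 0.89). Of 20 mature neuron markers 1 fell, Cystm1 (−0.30, lost in 8 of 9 fits), and 0 rose in limma (3 lower and 1 higher at an unadjusted p under 0.05). Among 20 markers of immature neurons and progenitors Gng8, a G protein subunit of immature neurons, fell (6.96, 6.97 and 7.0 against 6.71, 6.44 and 6.35; −0.48, lost in 6 of 9 fits), as did Ddit3 (−0.43), a stress factor also counted with the unfolded protein response, and 4 of this list fell without 4-week replicate 1. Of 20 axon guidance genes the protocadherin gene Pcdh10 and the ephrin receptor gene Epha5 fell. Pcdh10 read 7.14, 7.02 and 6.85 against 6.06, 5.48 and 5.82 (−1.22, SE 0.21, limma adjusted p = 0.015, lost in 2 of 9 fits) and Epha5 8.18, 8.21 and 8.15 against 7.78, 7.38 and 7.52 (−0.62, SE 0.11, limma adjusted p = 0.0148, lost in 2 of 9 fits).

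Of 1016 olfactory receptor genes, each expressed in its own small set of neurons, 31 fell (3.05%) and 1 rose, with a median of −0.10 (−0.02 after quantile normalization). The share of falls was near that of all genes (2.58%), and it ranged from 5 without 4-week replicate 2 or OVA replicate 3 to 36 without control replicate 3. Olfr411 read 8.32, 8.43 and 8.42 at 2 h and 7.77, 7.67 and 7.64 at 4 weeks (−0.70, SE 0.08, limma adjusted p = 0.00356), Olfr24 changed by −0.65 and Olfr1055 by −0.85. Olfr767 was the exception and rose, from 5.94, 6.11 and 6.14 to 6.80, 6.93 and 6.78 (0.77, SE 0.10, limma adjusted p = 0.00501). These 4 calls were kept in all 9 fits. Of 163 vomeronasal receptors 0 were called in limma (11 at an unadjusted p under 0.05) and of 13 trace amine-associated receptors 0 (3 unadjusted). Gnat3, the gustducin subunit of solitary chemosensory cells, rose by 0.55 from 3.73, 3.66 and 3.60 to 4.23, 4.23 and 4.19 (limma adjusted p = 0.00436, kept in all 9 fits), the call among 17 genes of these cells.

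Transcripts of other functions were named for the size or the p-value of their change. Ksr2, a scaffold of the MAP kinase cascade, read 8.84, 8.83 and 8.56 at 2 h and 7.43, 6.86 and 7.11 at 4 weeks (−1.61, SE 0.27, limma adjusted p = 0.0142, lost in 2 of 9 fits). Tmem86b, an enzyme that cleaves vinyl ether lipids, read 8.08, 7.72 and 7.90 against 6.94, 6.76 and 6.83 and fell by 1.06 (SE 0.11, limma adjusted p = 0.00353). Among the rises Ccn1, a matrix protein that growth factors and stretch induce, read 6.99, 7.69 and 6.97 against 8.10, 8.39 and 8.55 (1.13, SE 0.19, limma adjusted p = 0.0138, lost in 2 of 9 fits). The transporter gene Slc10a5 rose by 0.93 (limma adjusted p = 0.00292), the sorting nexin gene Snx1 by 0.80 (limma adjusted p = 0.00175), the splicing gene Bud31 by 0.77 (limma adjusted p = 0.00174), the phosphorylase kinase gene Phkb by 0.76 and the respiratory supercomplex gene Cox7a2l by 0.70. These 5 and the call of Tmem86b were kept in all 9 fits. Snx1 read 7.5, 7.40 and 7.35 against 8.21, 8.27 and 8.15, with control arrays at 7.33 to 7.48, so the 4-week arrays stood apart from both other groups.

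Of the markers of tissues that a dissection can carry along, 1 gene or none in each list passed. Of 22 skeletal muscle genes Tnnt1 fell (−0.53), of 15 fat cell genes Dgat2 (−0.53), of 13 glial genes Pmp22 (−0.62), of 23 liver-type plasma protein genes F2 (−0.48), and of 20 vessel wall and fibroblast genes Myh11 rose (0.37). These calls were lost in 4 to 8 of the 9 fits. Of 16 bone and cartilage genes and 7 erythroid genes 0 were called in limma, with 2 and 0 at an unadjusted p under 0.05. The mean levels of the OVA and 4-week arrays overlapped for muscle (5.12 to 5.26 against 5.08 to 5.47), bone (7.18 to 7.44 against 7.10 to 7.70) and fat (5.79 to 5.83 against 5.65 to 5.92). They did not overlap for liver-type plasma proteins (5.63 to 5.71 against 5.52 to 5.59, and 6.01 to 6.48 in the control arrays). Of 21 gland proteins, 29 cell cycle genes and 11 immunoglobulin genes 0 were called in limma, with 4, 4 and 2 at an unadjusted p under 0.05. Bpifb9a, a nasal gland protein, read 5.12, 5.82 and 8.21 at 2 h and 9.89, 7.74 and 8.33 at 4 weeks, with overlap (2.27, SE 0.88, limma adjusted p = 0.161).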

How the data were processed

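Total RNA of whole nasal mucosa was measured on the Affymetrix Mouse Gene 1.0 ST array, with 1 array for each sample. The deposited values are on the log2 scale, and the authors made them with RMA (robust multi-array averaging), per the submitters' processing notes. The sources used here do not give the software or library files. No detection calls were used, and levels are compared between arrays only, not between genes.

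Of 35556 rows 23410 carry a gene symbol in the platform annotation, 21789 of 1 gene and 1621 of several, and 12146 carry none. Entrez numbers matched 21698 single-gene probe sets to current symbols. For each gene the probe set of highest mean stood for it, which gave 19938 genes, 999 of them with further probe sets. The 9 arrays were fitted in limma 3.58.1 (R 4.3.3) with 3 group means (6 residual and 2.98 prior degrees of freedom), and p-values were adjusted by the Benjamini-Hochberg method over 23410 probe sets with a threshold of 0.05. Tables were made in Python 3.11.15. Tested on simulated data of this comparison (23410 probe sets, 50 changed at each size), the fit found 72% of the 1.5-fold changes and 80% of the 2-fold changes, all 50 of 3-fold and all 50 of 4-fold, and 13 of its 189 calls were false.

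The comparison, the 45 lists and 14 families and the rule for named genes were chosen with earlier results of these data known. The rule names up to 15 rises and 15 falls with the largest called change and the 10 smallest p-values (single-gene probe sets, without predicted transcripts, small RNAs, chemosensory receptors and pseudogenes), for every list its up to 4 members of smallest p, and a fixed set of allergy, cell type and clock genes. Any other gene was named after its values were seen. Promoter and microRNA sequences are from RefSeq (GRCm38.p6). Alternatives were fits of 6 arrays, other scalings, filters and variance models, the replicate block and leaving out each array.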

Additional observations from a re-analysis of the deposited data

How the results depend on the processing

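The count of 1481 called probe sets was 946 with 1 probe set per gene, 737 with the 6 arrays of both groups alone, and 446 (without OVA replicate 3) to 1361 (without control replicate 3) when an array was left out. The other alternatives gave 1397 to 1987. Of the 272 genes that the rule names 126 were called, 82 in the fit of 6 arrays and 63 to 117 with an array left out, and 57 calls were kept in all 9 such fits. Of the list members 235 were called, 139 in the fit of 6 arrays and 84 to 232 with an array left out. No called gene that the rule names changed direction under these alternatives, but 7 uncalled ones did. Leaving out an array gave Ccl17 −0.15 to 0.40, Il25 −0.10 to 0.0015, Omp −0.20 to 0.11, S100a8 −0.39 to 0.42, S100a9 −0.22 to 0.72, Scgb1a1 −0.22 to 0.048 and Tslp −0.023 to 0.12. Quantile normalization gave Il25 0.041 and Scgb1a1 0.023. Deviations of same-numbered OVA and 4-week arrays correlated at r = 0.185, −0.0286 and 0.332, and those of differently numbered arrays at −0.358 to 0.265. OVA replicate 1 correlated best with 4-week replicate 2 (0.265). With 3 arrays per group these values cannot decide whether the replicate numbers pair the samples. With the number as a replicate block, 1397 probe sets were called, with 18 rises instead of 4 among cilia genes and 57 falls instead of 31 among olfactory receptors. The cause of these differences between fits was not tested. Brighter probe sets rose slightly and dimmer ones fell slightly in the deposited values: the median change was −0.078 in the dimmest 10% of probe sets and 0.083 in the brightest 10%, against 0.023 and 0.0048 after quantile normalization. Under some scaling the median changed sign for the lists of B cells, glands, respiratory and basal cells, cell cycle, antioxidant, respiratory chain, unfolded protein response and fat cell genes, and for the families of P450, vomeronasal receptor, collagen, glycosyltransferase and H2-M genes. Arrays without detection calls cannot show which transcripts were above background, so small changes of dim probe sets, receptors and small RNAs above all, are the least certain.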

Other observations

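MicroRNA genes, measured here through the hairpin or its precursor transcript, were looked at after the values of small RNAs were seen. Of 302 measured microRNA genes 12 fell (3.97%) and 3 rose (0.993%) in limma, against 2.58% and 2.62% of all genes, with a median change of −0.11. Falls numbered 3 without 4-week replicate 2 or OVA replicate 3 and 13 without control replicate 1, and rises 0 without OVA replicate 2 or OVA replicate 3. For the 3 falls kept in all 9 fits, 1 mature arm of each hairpin is shown with the seed (bases 2 to 8) in capitals, from RefSeq, because these arms are among the RNAs the hairpins can give; the other arms miR-103-2-5p, miR-138-2-3p and miR-505-5p are not printed. The 3 seeds shown differ.
miR-103-3p: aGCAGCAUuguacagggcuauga
miR-138-5p: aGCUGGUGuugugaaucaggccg
miR-505-3p: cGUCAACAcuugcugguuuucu
Mir103-2, which lies in an intron of a pantothenate kinase gene, read 5.28, 5.30 and 5.27 at 2 h and 4.21, 4.51 and 4.00 at 4 weeks. It fell by 1.04 (SE 0.15, limma adjusted p = 0.00832). Mir138-2 read 6.46, 6.45 and 6.41 against 5.98, 5.46 and 5.50 (−0.79, limma adjusted p = 0.0123), and Mir505 8.53, 8.95 and 8.74 against 7.97, 7.90 and 8.16 (−0.73, limma adjusted p = 0.00922). Among the rises Mir186 changed by 0.92 (limma adjusted p = 0.014, lost in 2 of 9 fits). The arrays do not separate mature microRNA from precursor.

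Solute carriers, the membrane transporters of small molecules, held 24 falls (6.69%) and 5 rises among 359 genes, against 2.58% and 2.62% of all genes, with a median of −0.10. The count of falls ranged from 5 without 4-week replicate 3 to 22 without control replicate 3. Slc26a1, a sulfate and oxalate exchanger, read 7.44, 7.82 and 7.18 at 2 h and 6.68, 6.52 and 6.68 at 4 weeks, the level of the control arrays (6.51 to 6.63). It fell by 0.85 (SE 0.14, limma adjusted p = 0.0124, lost in 1 of 9 fits). Slc22a17, a lipocalin receptor, and Slc35a4, a nucleotide sugar transporter, fell by 0.52 each, in all 9 fits. Zinc finger genes held 11 rises (3.19%) and 5 falls (1.45%) among 345, so the share of rises was near that of all genes (2.62%) and that of falls below it (2.58%). Zfp51 read 6.51, 6.31 and 6.28 against 7.19, 7.04 and 7.02, above the control arrays (6.35 to 6.43) too, and rose by 0.72 (SE 0.08, limma adjusted p = 0.00406). The rises numbered 3 without 4-week replicate 2 or OVA replicate 3, and 18 under quantile normalization or median centring. Among 85 glycosyltransferases, which build the sugar chains of mucus and membrane proteins, 3 fell (3.53%) and 2 rose (2.35%), near the shares of all genes. B4galt3, a galactosyltransferase, read 7.68, 7.83 and 7.65 against 6.97, 7.19 and 6.94 and fell by 0.69 (SE 0.10, limma adjusted p = 0.00785, kept in all 9 fits).

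Of the rows without a gene symbol 722 were called in the fit of every row, 258 higher and 464 lower, whereas called probe sets with a symbol were mostly higher (60.3%). What these rows measure was not analysed here.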
